A study of Homo sapiens with 6 samples.

Results

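Metallothioneins are small proteins, rich in cysteine, that bind zinc and other metals in the cell. The set described here held 10 genes, chosen by name: 8 metallothionein genes (MT1A, MT1E, MT1F, MT1G, MT1H, MT1M, MT1X and MT2A), the zinc exporter gene SLC30A1 and MTF1, the gene of the transcription factor that senses zinc. All 12 bead probes that the array's annotation assigns to these genes were taken. Of the 10 genes, 9 have a probe, and 6 of these were detected and entered the test among 12013 genes: MT1E, MT1G, MT1X, MT2A, SLC30A1 and MTF1. MT1A was not analysed here.

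The question of the experiment was how depletion of CCAR2, a nuclear protein with roles in the DNA damage response, changes gene expression in U2OS, a human osteosarcoma cell line. Cells received 4 pooled siRNAs that target CCAR2 (siCCAR2, arrays D, E and F) or a control siRNA (siCTRL in the labels, siLUC in the paper and here, arrays A, B and C) and were harvested 6 days later, in 3 arrays each. Total RNA was labelled and hybridized to Human HT12_v4 bead arrays, which shared 1 chip. The siLUC arrays took its first sections and the siCCAR2 arrays those that followed, and a sample's place on the chip cannot be told apart from its siRNA. Per the study the experiment was done as independent triplicates, but no label ties an array to a repeat, and the p-values measure the spread between these arrays. CCAR2 itself had normalized log2 signals of 9.88, 9.96 and 9.91 in siCCAR2 arrays D, E and F, against 11.43, 11.34 and 11.01 in siLUC arrays A, B and C. All siCCAR2 arrays thus lay below all siLUC arrays (log2 fold change of -1.34 with a standard error of 0.15, limma's adjusted p = 0.0394). Each array detected 37.2% to 41.0% of its probes. Of 9 osteoblast markers, 6 were detected on at least 1 array (RUNX2, ALPL, SPP1, BGLAP, COL1A1 and SPARC) and SP7, IBSP and COL1A2 were not. BGLAP was faint, with mean log2 signals of 7.11 in siCCAR2 and 7.05 in siLUC cells. Both lay below the 7.91 of ALB, a liver marker, in either group. SPARC, which encodes a protein of the bone matrix, was lower in siCCAR2 cells (log2 fold change of -1.71, limma's adjusted p = 0.0394). Of 11 markers of blood, vessel, epithelium, muscle, liver and glia with a probe, PECAM1, EPCAM and ALB were detected, with log2 fold changes of -0.28, -0.03 and -0.00061.

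In human cells the metallothionein genes lie side by side in a cluster on chromosome 16. When free zinc rises, MTF1 enters the nucleus and binds short DNA motifs, the metal response elements, in front of metallothionein genes and of SLC30A1. The metallothioneins then bind the metal and SLC30A1 carries zinc out of the cell. Metallothionein genes are also known to respond to cadmium, copper and oxidants, and MT2A to glucocorticoids.

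The sequences in front of 4 members are shown because they hold the motif through which MTF1 acts. They are the 250 bases before the transcription start in RefSeq (build GRCh38.p14), written 5′ to 3′ on the gene's own strand, for MT2A and MT1X, the detected metallothioneins with an entry, for MT1H, a paralog that was not detected, and for the exporter gene. Capitals mark each match to the core of the metal response element, searched on both strands as TGCACNC and TGCGCNC, where N is any base.
MT2A (chr16:56608334-56608583, plus strand): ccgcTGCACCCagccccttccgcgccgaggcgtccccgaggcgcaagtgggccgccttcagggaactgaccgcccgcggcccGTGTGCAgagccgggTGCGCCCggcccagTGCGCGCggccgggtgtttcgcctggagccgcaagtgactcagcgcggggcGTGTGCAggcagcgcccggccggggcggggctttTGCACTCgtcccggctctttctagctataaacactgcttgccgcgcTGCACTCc
MT1X (chr16:56682220-56682469, plus strand): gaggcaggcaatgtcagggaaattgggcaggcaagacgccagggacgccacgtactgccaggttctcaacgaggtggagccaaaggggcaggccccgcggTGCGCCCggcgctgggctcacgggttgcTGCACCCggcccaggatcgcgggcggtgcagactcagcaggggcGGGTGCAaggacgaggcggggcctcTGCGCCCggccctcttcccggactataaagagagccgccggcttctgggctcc
MT1H (chr16:56669564-56669813, plus strand): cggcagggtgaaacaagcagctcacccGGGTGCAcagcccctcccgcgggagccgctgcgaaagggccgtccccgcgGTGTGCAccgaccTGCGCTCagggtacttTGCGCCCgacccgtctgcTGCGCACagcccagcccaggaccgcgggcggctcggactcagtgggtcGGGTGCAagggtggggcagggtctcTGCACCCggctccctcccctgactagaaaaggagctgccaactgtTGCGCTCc
SLC30A1 (chr1:211579162-211579411, minus strand): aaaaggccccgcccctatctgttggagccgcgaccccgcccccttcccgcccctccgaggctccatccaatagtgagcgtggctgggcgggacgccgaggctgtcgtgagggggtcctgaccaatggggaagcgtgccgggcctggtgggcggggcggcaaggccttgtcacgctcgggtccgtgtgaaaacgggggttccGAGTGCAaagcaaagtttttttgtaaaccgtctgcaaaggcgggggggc

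The core occurred 7 times in front of MT2A, 4 times in front of MT1X, 8 times in front of MT1H and 1 time in front of SLC30A1. It did not occur in the same stretch before MTF1. No matches overlapped each other, and overlap with motifs of other factors was not searched. Of 35116 promoters of this length in RefSeq, 24.8% held at least 1 core, 0.37% at least 4 and 0.0313% at least 7. A pair of cores stood at the same places in MT1X and MT1H, at positions -78 to -72 from the start on the opposite strand and -53 to -47 on the gene's strand. MT2A had cores at -88 to -82 on the opposite strand and at -54 to -48 on its own. Of the 10 members, 5 have an entry in this table, which are the 4 shown and MTF1.

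**Figure D1:**
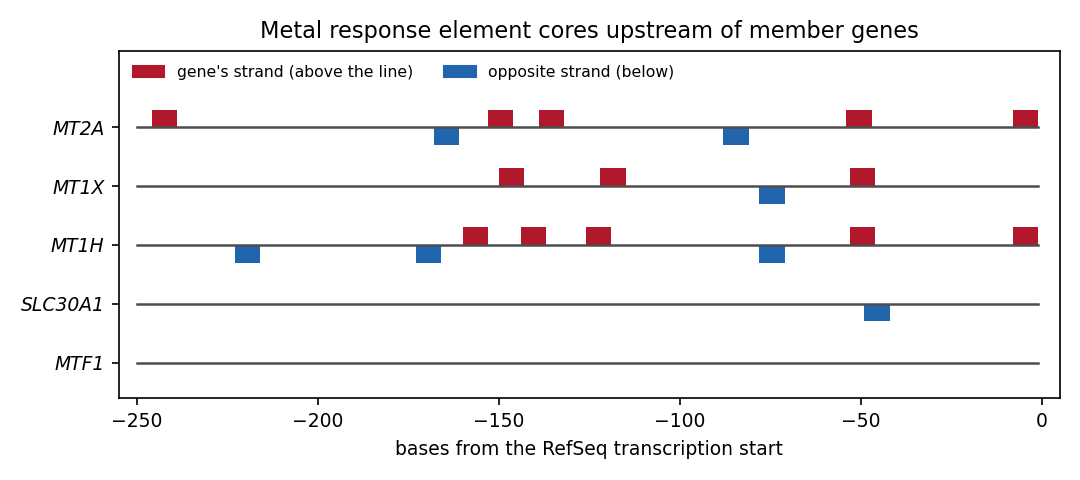
Position of each core of the metal response element in the 250 bases before the RefSeq start of 5 members, in bases from the start (x axis), with 1 line per gene and boxes above the line for the gene's strand and below it for the opposite strand. MT2A carries 7 boxes, MT1X 4, MT1H 8, SLC30A1 1 and MTF1 none.

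The metallothionein genes fell into detected and undetected paralogs, and this split was the same in siCCAR2 and siLUC cells. MT1F, MT1H and MT1M, with 4 probes together, had bead signals between 69.7 and 146 on all arrays (linear scale, not normalized) and were detected on none. Their smallest detection p was 0.0195, where 0.01 was the limit, and the lowest signal of any detected probe lay between 131.7 and 164 across arrays. No fold change is given for them. MT1F, for example, had 107, 146 and 103 in siCCAR2 arrays D, E and F, against 115, 110.2 and 76.9 in siLUC arrays A, B and C. MT1E has a pair of probes that differed, since one had signals between 1502 and 8815 and was detected on all 6 arrays, whereas the other had signals between 79.7 and 148 and was detected on none. Of the remaining genes and pseudogenes of the family, MT1B, MT1IP, MT1L, MT3 and MT4 have probes, and none was detected. The mRNAs of metallothionein paralogs resemble each other closely, and how much of a paralog's signal comes from its neighbours was not tested.

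MT1X had the largest difference between conditions in the set. Its normalized log2 signal was 10.57, 11.40 and 10.37 in siCCAR2 arrays D, E and F, against 9.78, 11.17 and 9.24 in siLUC arrays A, B and C. The groups overlapped, because siLUC array B was higher than siCCAR2 arrays D and F. The means were 10.78 ± 0.54 in siCCAR2 cells and 10.07 ± 0.998 in siLUC cells (SD, n = 3 each), a difference of 1.64-fold (log2 fold change of 0.72, standard error 0.46). The difference did not pass limma in a fit that pairs no arrays (adjusted p = 0.827). It moved with single arrays, to 0.30 without siLUC array C and 1.27 without siLUC array B. The same fit serves for the other members below, and any difference between repeats of the experiment counts as spread in it. A fit with paired arrays follows after them. As RNA came from whole cultures, more cells with MT1X mRNA and more of it per cell cannot be told apart.

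MT2A, the most widely expressed human metallothionein, had bead signals between 7550 and 14836 before normalization. Its normalized log2 signal was 13.63, 13.69 and 13.22 in siCCAR2 arrays D, E and F, against 13.42, 13.25 and 12.65 in siLUC arrays A, B and C. Arrays D and E lay above all siLUC arrays and array F below siLUC arrays A and B. The log2 fold change was 0.40 (1.32-fold, with a standard error of 0.22), without passing limma (adjusted p = 0.804). It was 0.18 without siLUC array C and 0.16 with array quality weights.

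MT1E varied more between arrays of the same condition than between conditions. Its normalized log2 signal was 11.80, 12.90 and 11.28 in siCCAR2 arrays D, E and F, against 11.03, 13.08 and 10.30 in siLUC arrays A, B and C, so that the siLUC arrays alone spanned 6.87-fold and the siCCAR2 arrays 3.07-fold. The difference between conditions was 1.43-fold (log2 fold change of 0.52 with a standard error of 0.66, limma's adjusted p = 0.899). The log2 fold change was -0.068 without siLUC array C, 0.061 without siCCAR2 array E, 0.88 without siCCAR2 array F and 1.32 without siLUC array B, where limma's adjusted p was 0.193. The pooled standard deviation of MT1E was 1.17 on the log2 scale, and 99.8% of the genes tested had a smaller one. For MT1X it was 0.80, larger than that of 99.0% of genes, whereas the median over all genes was 0.193.

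MT1G had normalized log2 signals of 8.69, 8.98 and 8.42 in siCCAR2 arrays D, E and F, against 8.73, 8.63 and 8.36 in siLUC arrays A, B and C. The groups overlapped almost fully (log2 fold change of 0.13 with a standard error of 0.18, limma's adjusted p = 0.913). Its 95% interval ran between -0.28 and 0.53, and the sign turned without siCCAR2 array E (-0.017).

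**Figure D2:**
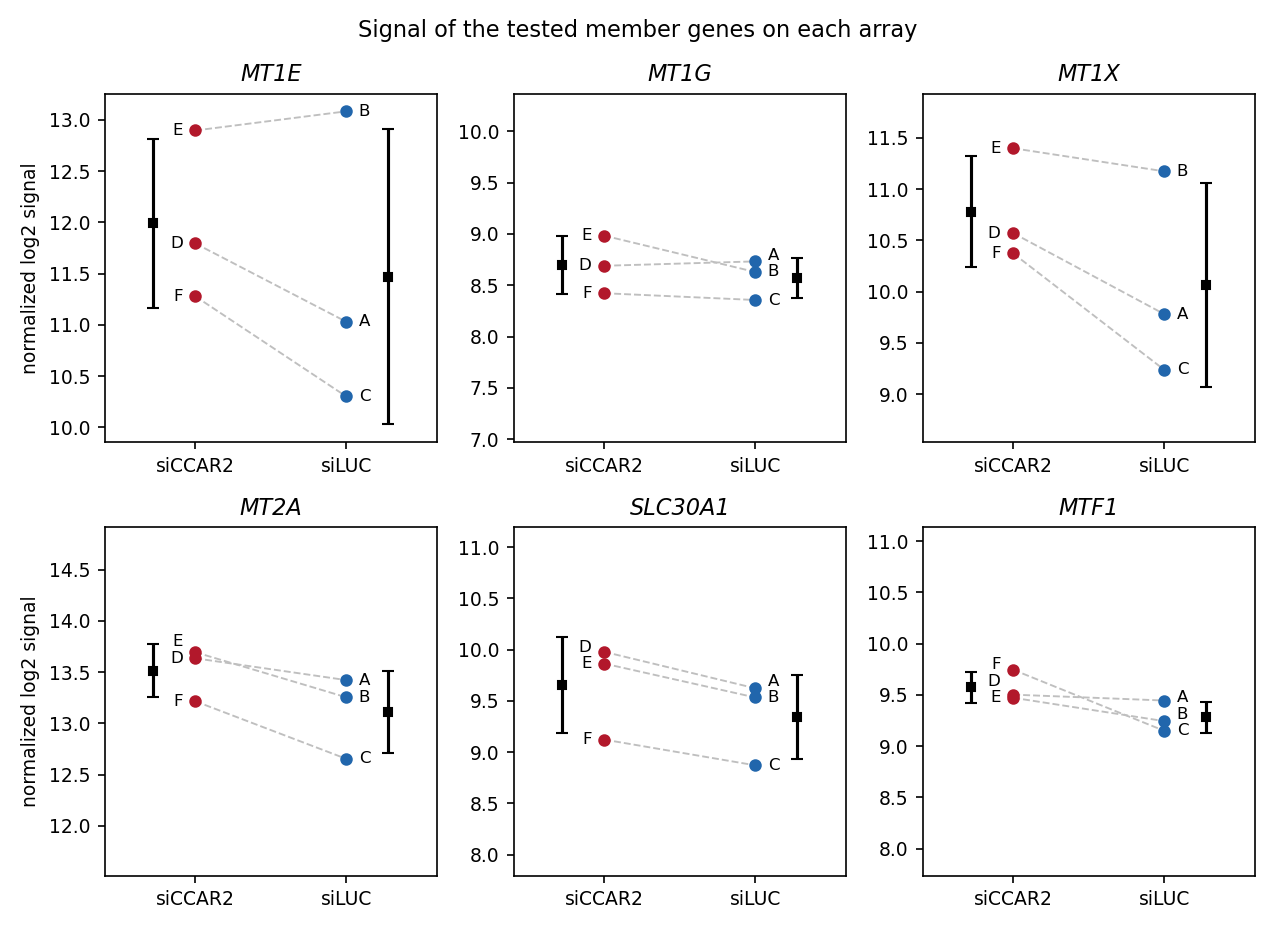
Normalized log2 signal (y axis, each panel spanning the same number of log2 units) of the 6 tested genes in siCCAR2 (left, red) and siLUC (right, blue), with 1 point per array, its letter beside it, and the mean ± SD in black. Dashed lines join the arrays paired in the replicate block. For MT1X, MT2A, SLC30A1 and MTF1 all 3 lines run higher in siCCAR2, and for MTF1 alone the groups do not overlap.

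SLC30A1 is read by 2 probes, both detected on all 6 arrays. The probe used for the gene had normalized log2 signals of 9.98, 9.86 and 9.12 in siCCAR2 arrays D, E and F, against 9.62, 9.53 and 8.87 in siLUC arrays A, B and C. Array F was low in siCCAR2 and array C in siLUC, and the groups overlapped. The log2 fold change was 0.31 for this probe (with a standard error of 0.27, limma's adjusted p = 0.853) and 0.38 (standard error 0.28) for the other. For the first probe it was 0.08 without siLUC array C, 0.15 without siCCAR2 array D, 0.58 without siCCAR2 array F and 0.048 with array quality weights.

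MTF1 was the only member whose groups did not overlap. Its normalized log2 signal was 9.50, 9.47 and 9.74 in siCCAR2 arrays D, E and F, against 9.44, 9.24 and 9.15 in siLUC arrays A, B and C. The difference was 1.23-fold (log2 fold change of 0.29, standard error 0.15), with an adjusted p of 0.784 from limma and p = 0.1 in a two-sided exact permutation test, the smallest p that 3 arrays against 3 allow. Of all genes tested, 6.35% were higher in siCCAR2 without overlap. MTF1 had a pooled standard deviation of 0.15, below the median of all genes.

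All 6 tested members had a positive log2 fold change, as had 50.9% of all genes. The fit used so far pairs no arrays. It called no member at the less strict of the study's limits, 1.5-fold and an adjusted p of 0.05. Of all genes, 0.025% passed these limits in either direction and 0.00832% with a higher signal in siCCAR2 cells. The study listed many more genes at more than 1.5-fold. A fit that pairs the arrays, given below, called 1.66% of all genes in either direction at these limits. Without pairs, no member had an unadjusted p under 0.05, which 3.49% of all genes had with a higher signal in siCCAR2 cells. The 4 metallothioneins had a median log2 fold change of 0.46, against 0.0042 over all genes. Without siLUC array C this median was 0.097, without siCCAR2 array E 0.19, without siCCAR2 array F 0.71 and without siLUC array B 0.87.

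No label says which siLUC and siCCAR2 arrays belong to the same experiment, although the study describes its gene list as a paired comparison. With the arrays paired by their order on the chip (D with A, E with B, F with C), the arrays of a pair deviated from their group means together, and a fit with the pair as a replicate block is therefore given beside the first one. This pairing was known from earlier analysis of the same data, so that calls made with it are not independent evidence. It was kept for the shared deviations that the block removes from the error, so its p-values and intervals can be too optimistic. With the block MT1X was called higher in siCCAR2 cells (adjusted p = 0.0261 from limma, 95% interval of the log2 fold change between 0.39 and 1.05). It was 1.73-fold higher in array D than in A, 1.17-fold higher in E than in B and 2.20-fold higher in F than in C. The standard error of MT1X was 0.15 with the block and 0.46 without it.

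MT1X was the only one of 6 members past both thresholds with the block, where 1.66% of all genes were called in either direction and 0.999% with a higher signal in siCCAR2 cells. In addition to MT1X, 4 members had an unadjusted p under 0.05 with the block and a positive change, namely MT2A, MT1E, SLC30A1 and MTF1, against 9.09% of all genes, but their adjusted p values were 0.112, 0.146, 0.194 and 0.273. MT1G had an adjusted p of 0.658. MT1X, MT2A, SLC30A1 and MTF1 were higher in siCCAR2 in all 3 pairs, as were 20.2% of all genes. For MT1E the log2 difference was 0.76 between D and A and 0.98 between F and C, but -0.19 between E and B. With this pairing MT1X was called in 7 of 11 fits. It was not called when the pair of A and D was left out (limma's adjusted p = 0.214) or that of C and F (0.0946). Nor was it called after neqc background correction (0.136) or with median scaling (0.286). Without the pair of B and E, both MT1X and MT1E were called (limma's adjusted p = 0.00024 and 0.00063). Under the 5 other possible pairings the lowest adjusted p of MT1X was 0.349.

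**Figure D3:**
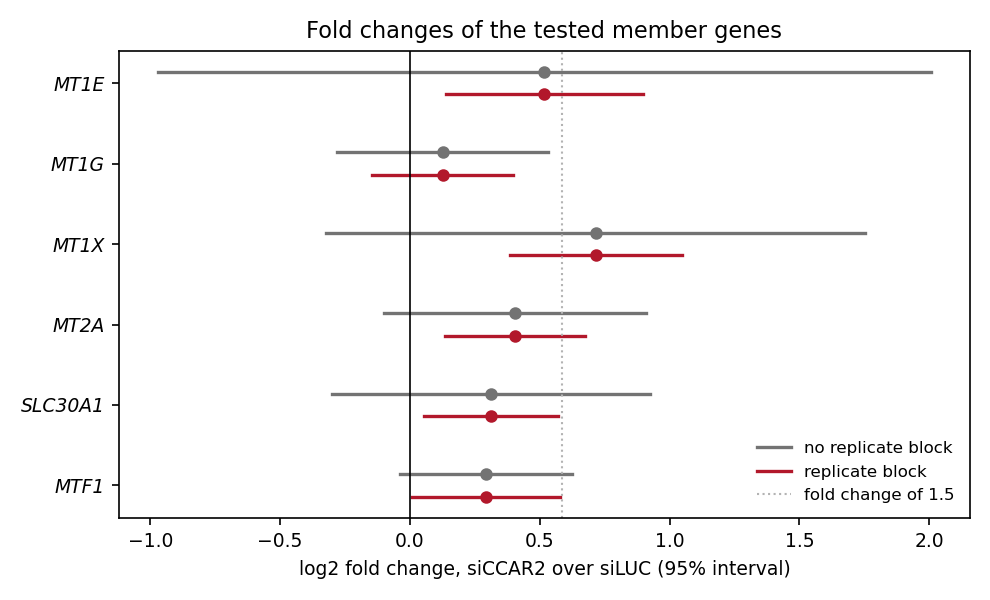
Log2 fold change of siCCAR2 over siLUC (x axis) of the 6 tested genes, with 95% intervals from limma, in grey without and in red with the replicate block, and a dotted line at a fold change of 1.5. The interval of MT1X runs between -0.32 and 1.75 without the block and between 0.39 and 1.05 with it.

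Between arrays, the metallothioneins varied in patterns that differed among paralogs. MT1E and MT1X were highest in siCCAR2 array E and siLUC array B and lowest in siLUC array C, with a Pearson correlation of 0.970 over the 6 arrays. MT2A, MT1G and SLC30A1 formed a second pattern, with low values in siCCAR2 array F and siLUC array C. The correlation was 0.938 between MT2A and SLC30A1, 0.858 between MT2A and MT1G and 0.867 between MT1G and SLC30A1. Across the patterns it was lower, between 0.632 for MT1E with MT2A and 0.708 for MT1X with MT2A among the metallothioneins. MTF1 followed neither pattern and had correlations between 0.0431 (MT1E) and 0.522 (MT2A). With the group means removed, MT1E and MT1X had a correlation of 0.998 and MT2A and SLC30A1 of 0.949, whereas MTF1 lay between -0.253 and 0.135. These values describe 6 arrays that share 1 chip and differ in overall signal. Over all genes, too, the arrays paired by order on the chip deviated from their group means together, with correlations of 0.615, 0.665 and 0.440.

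**Figure D4:**
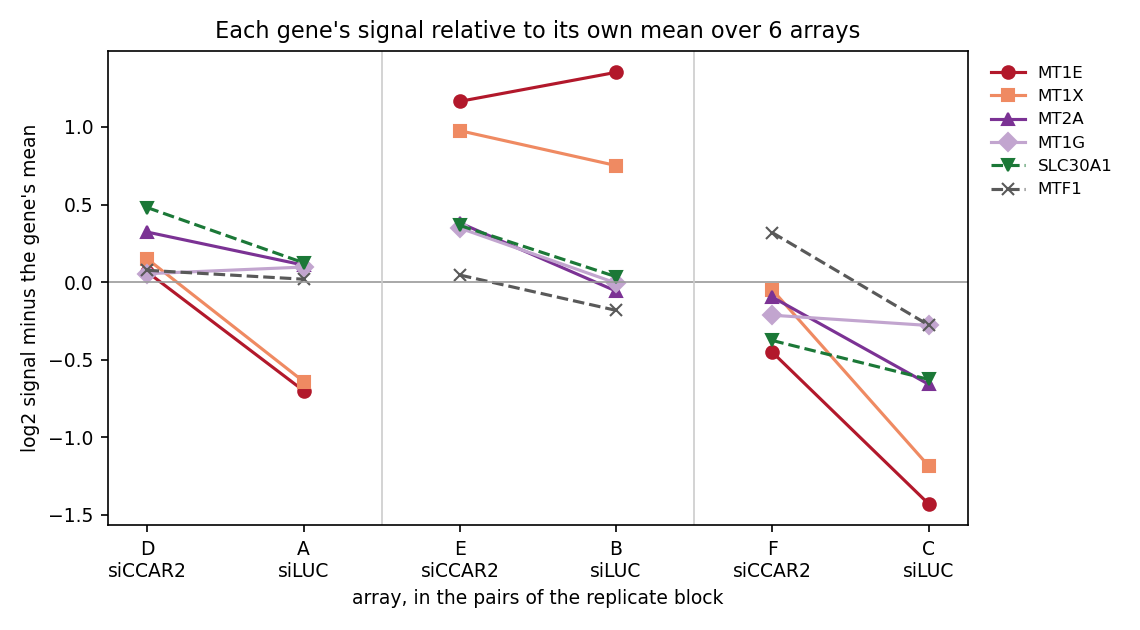
Normalized log2 signal of each tested gene minus its own mean over the 6 arrays (y axis), with the arrays in the pairs of the replicate block and siCCAR2 left in each pair (x axis). MT1E and MT1X stand highest in the pair of arrays E and B, whereas MT2A, MT1G and SLC30A1 stay closer to 0 there and MTF1 is highest in array F.

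The mean normalized log2 signal of the 4 detected metallothioneins was 11.17, 11.74 and 10.82 in siCCAR2 arrays D, E and F, against 10.74, 11.54 and 10.14 in siLUC arrays A, B and C. MT1E and MT1X move this mean most, with pooled standard deviations of 1.17 and 0.80, against 0.34 for MT2A and 0.24 for MT1G. The genes whose profiles came closest to this mean over the 6 arrays, other metallothioneins left out, were IMP4 (Pearson correlation of 0.995), ZNF576 (0.995), MRTO4 (0.995), SNORD33 (0.995) and PGGT1B (0.994). IMP4 and MRTO4 encode proteins of ribosome assembly, SNORD33 is a small nucleolar RNA and PGGT1B encodes a subunit of a prenyltransferase. Correlations over so few arrays are imprecise, and 518 genes (4.31%) had one above 0.9 with this mean. The reason was not tested.

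The difference of the metallothioneins between conditions, set against those of MTF1 and the exporter gene, was within the spread of the arrays. The mean log2 signal of the 4 metallothioneins minus that of MTF1 was 1.67 ± 0.60 in siCCAR2 cells and 1.53 ± 0.68 in siLUC cells (SD, n = 3 each), so that their mean log2 fold change exceeded that of MTF1 by 0.15. Against SLC30A1 the excess was 0.13, with 1.59 ± 0.36 in siCCAR2 cells and 1.46 ± 0.47 in siLUC cells. Of the single paralogs, MT1X had the largest excess, 0.42 over MTF1 and 0.40 over SLC30A1. MT2A had 0.11 and 0.09, MT1E 0.22 and 0.21, and MT1G -0.17 and -0.19. Of these 8 comparisons, the smallest two-sided exact permutation p was 0.5 (0.9 after Benjamini-Hochberg adjustment), where 0.1 is the smallest possible. Within the pairs of the block, the excess of MT1X over MTF1 lay between -0.003 and 0.73. When single arrays were left out, the excess of the mean ran between -0.15 (without siCCAR2 array E) and 0.53 (without siLUC array B) over MTF1, and between -0.04 (without siLUC array A) and 0.40 (without siLUC array B) over SLC30A1.

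Other genes of zinc transport lay on both sides of 0. Of 10 zinc exporters other than SLC30A1, 5 were tested, 1 above and 4 below 0, and their median log2 fold change was -0.17. SLC30A9, which acts in mitochondria, had normalized log2 signals of 10.80, 10.75 and 10.74 in siCCAR2 arrays D, E and F, against 11.28, 11.04 and 11.39 in siLUC arrays A, B and C. The log2 fold change was -0.48 (standard error 0.14), but limma's adjusted p was 0.767, and 0.0674 with the block. SLC30A6 and SLC30A5, whose products act together in the secretory pathway, had log2 fold changes of -0.21 and -0.17, and SLC30A3, known from synaptic vesicles, had 0.06. Of 14 zinc importers of the SLC39 family, 10 were tested, 6 above and 4 below 0, with a median of 0.016. The log2 fold change was -0.37 for SLC39A8, an importer of zinc and manganese, -0.15 for SLC39A7, which releases zinc from the endoplasmic reticulum, and 0.18 and 0.20 for SLC39A1 and SLC39A3, importers of the plasma membrane. None of these transporters passed limma. Without the block 1 exporter and no importer had a lower signal at an unadjusted p under 0.05 (3.01% of all genes), and with it 1 of each (8.18% of all genes), with none higher in either fit.

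Genes of copper handling and of the response to metals and oxidants lay mostly above 0 without passing limma. Of 12 copper genes, 9 lay above 0, and the median log2 fold change was 0.081. It was 0.38 for CCS, the chaperone that loads superoxide dismutase with copper, and 0.23 for ATOX1, the chaperone of the copper pumps. SCO2 and COX11, which bring copper to cytochrome c oxidase, had 0.47 and 0.20. Of 15 genes that respond to heavy metals or oxidants, 12 lay above 0, with a median of 0.20. HMOX1, the heme oxygenase gene, had normalized log2 signals of 10.32, 10.17 and 11.00 in siCCAR2 arrays D, E and F, against 10.13, 9.91 and 10.31 in siLUC arrays A, B and C. Array F stood apart, array D lay just above the highest siLUC array and array E within the siLUC range. The log2 fold change was 0.38 (with a standard error of 0.22, limma's adjusted p = 0.824). It was 0.32 for the autophagy receptor gene SQSTM1, 0.41 for SRXN1, the sulfiredoxin gene, and 0.25 for the chaperone gene HSPA8. The 3 genes of this group below 0 were HSPA1A (-0.14), BAG3 (-0.13) and HSPA1B (-0.10). Of 12 tested targets of the glucocorticoid receptor, 7 lay above 0, with a median of 0.054. The log2 fold change was 0.55 for the phosphatase gene DUSP1, 0.48 for the transcription factor gene CEBPD, 0.27 for NFKBIA, the gene of an NF-κB inhibitor, and -0.19 for the kinase gene SGK1.

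At an unadjusted p under 0.05, 1 copper gene and 1 glucocorticoid target were higher without the block, as were 3.49% of all genes. With the block 2 of 12 copper genes, 6 of 15 metal and oxidant genes and 2 of 12 glucocorticoid targets were higher, and 9.09% of all genes. None passed the thresholds in either fit. The smallest adjusted p among these 3 groups was 0.767 without the block, for CCS and CEBPD, and 0.0693 with it, for DUSP1.

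**Figure D5:**
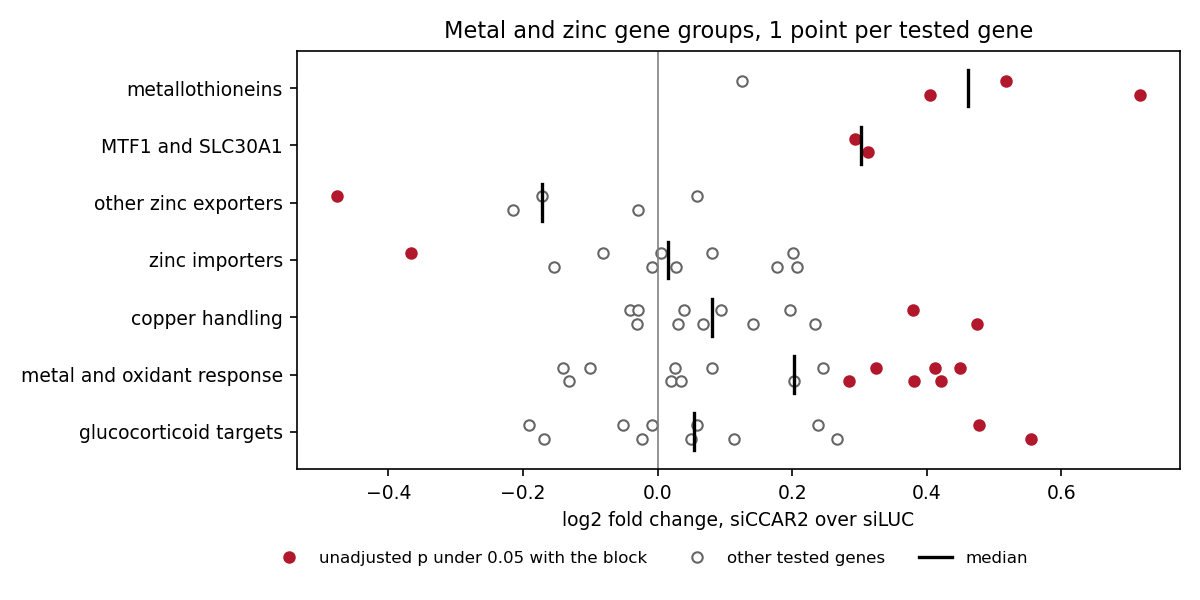
Log2 fold change of siCCAR2 over siLUC (x axis) of every tested gene in 7 groups (y axis), in which red points have an unadjusted p below 0.05 in the fit with the block and black bars mark each group's median. The medians are 0.46 for the metallothioneins, -0.17 for the other zinc exporters and 0.016 for the zinc importers.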

How the data were processed

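RNA of 3 siCCAR2 and 3 siLUC samples was read on bead arrays of 47321 probes. For each probe the authors deposited a bead signal that was not normalized, which is a linear intensity above 0 throughout, and a detection p-value. The software was BeadStudio 3.8 per the labels and GenomeStudio per the methods. The deposited quantile normalized intensity values served as an alternative. Here the log2 of the signal was quantile normalized. The robust spline normalization of the methods was not run. Probes named with 1 gene symbol (30112, against 8 with several and 17201 with none) were kept if the detection p was under 0.01 in at least 1 array. Among the probes of a symbol, that detected in more arrays, and then that of wider interquartile range, stood for the gene. The 12013 genes were tested with limma (version 3.58.1, R 4.3.3; lmFit, eBayes), p-values being adjusted by Benjamini and Hochberg over all of them. The scripts were tested on simulated data. The number of arrays limits the precision. Figures were drawn with matplotlib 3.10.9 (Python 3.11.15).

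No label pairs the arrays. The replicate block (D with A, E with B, F with C) rests on the correlation of deviations from the group means over all genes, which was 0.615, 0.665 and 0.440 in these pairs and -0.527 to 0.143 in the other couples. The members, gene lists and alternatives were chosen with earlier results of these data known. Named genes are the members, CCAR2, in each list the called genes and up to 4 genes of smallest p, and the 5 genes most correlated with the metallothionein mean. Markers used to check the cell type are named as well, and so are the metal and oxidant genes below 0. Exact permutation tests were two-sided, over 20 regroupings. Core matches were counted in RefSeq upstream sequences.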

Additional observations from a re-analysis of the deposited data

How the results depend on the processing

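No member was called in any fit without the block. Signs turned for MT1G with array quality weights (-0.047) and without siCCAR2 array E (-0.017), and for MT1E without siLUC array C (-0.068). The 3 genes called among all became 0 with neqc, median scaling or the choice of the brightest probe per gene. They also became 0 at the study's stricter limits, 2-fold and an adjusted p of 0.01. The number was 18 with array quality weights, and 0 to 7 when 1 array was left out (7 without siLUC array B). The replicate block called 200 genes (120 higher and 80 lower), 1 of them a member, MT1X. Pairing A with F, B with E and C with D called 15 and the 4 remaining pairings 0. In the 12 alternatives where limma called 0 genes at 1.5-fold and an adjusted p of 0.05, 367 to 755 had an unadjusted p below 0.05. In the fit with the block, 68 genes were called with neqc, 63 with median scaling (22 higher and 41 lower, the median of all genes then being -0.11), 204 with cyclic loess, 197 with the deposited table, 180 with the brightest probe per gene, 172 with a trend and robust estimation and 238 with array quality weights. Leaving out a pair gave 71 (A and D), 171 (C and F) and 509 (B and E). Of the members, the block called 0 to 2 when a pair was left out, 2 with array quality weights (MT1X and MT1E) and 1 with cyclic loess, the deposited table, the brightest probe or a trend. The median log2 fold change of the metallothioneins was 0.32 with median scaling and 0.25 with no detection filter, which adds the undetected MT1F, MT1H and MT1M. The excess over MTF1 and over SLC30A1 was added to the alternatives later, with values known, and moved by less than the spread between arrays. The cause of these shifts was not tested.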
